A study of Homo sapiens with 54 samples.

Results

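The 10 genes described here, STC1, ANGPTL4, EGLN3, EDN1, CA9, NDRG1, VEGFA, ADM, BNIP3 and PDK1, are known targets of the cellular response to low oxygen, and each is 1 row of a table of 27470 genes measured in both cell lines. They were chosen by gene symbol, with earlier results of these libraries in view, and STC1, ANGPTL4, EGLN3 and EDN1 were already known to differ between conditions, on the levels given here. Those 4 are therefore described by their levels and fold changes, with no test, and adjusted p-values are given for the other 6. All 10 had enough reads to be tested in both lines.

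Treatment with both drugs was studied in a pair of triple-negative breast cancer (TNBC) lines, MDA-MB-468 with wild-type BRCA1 and SUM1315 with mutant BRCA1. Parental MDA-MB-468 cells were left untreated (control) or treated overnight with 3 µM olaparib, with cisplatin (CDDP) at 1 or 2.5 µM, or with olaparib and CDDP at either dose. Parental SUM1315 cells were left untreated or treated with 8 µM olaparib, with CDDP at 2 or 4 µM, or with olaparib and CDDP at either dose. Olaparib blocks the DNA repair enzyme PARP-1, and CDDP crosslinks DNA. The olaparib resistant (OlaR) derivatives had been selected by rising doses and were kept in olaparib throughout, at 15 µM for MDA-MB-468 and 25 µM for SUM1315, so every OlaR condition holds olaparib at a higher dose than the parental cells it is compared with. OlaR cells were used as such or with the same CDDP doses. Each line has 1 OlaR derivative, no untreated OlaR cells were measured here, and drug, dose and derivation cannot be told apart in comparisons of OlaR with parental cells. The 18 conditions have 3 libraries each, 54 in all, and the labels do not say whether the 3 came from separate cultures, so p-values measure the spread between libraries, which may be technical. No condition was a low-oxygen culture.

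Libraries held 4977284 to 7540920 reads in parental and 3446613 to 4665505 in OlaR SUM1315 cells, and 5574767 to 9268162 in parental and 2070301 to 4676284 in OlaR MDA-MB-468 cells. Epithelial and mesenchymal markers separated the lines, except for KRT18. This epithelial keratin overlapped, at 584 to 833 adjusted reads in MDA-MB-468 libraries and 231 to 598 in SUM1315 libraries. EPCAM lay between 2630 and 3790 adjusted reads in MDA-MB-468 libraries and between 0 and 4.61 in SUM1315 libraries, while VIM lay between 7930 and 13200 in SUM1315 and between 7.99 and 53.8 in MDA-MB-468. The progesterone receptor gene PGR did not pass 3.09, but the estrogen receptor gene ESR1, low in TNBC by definition, was read at 24.9 to 221 in MDA-MB-468. PTPRC, the leukocyte marker, did not pass 6.97 in any library, whereas the endothelial marker PECAM1 (45 to 207) and the fibroblast collagen gene COL1A1 (132 to 796) were read in SUM1315, and the part of other cells in the results was not tested. Every pair of replicates differed beyond counting error: the chi-square of their reads, divided by its degrees of freedom, ran from 1.586 to 20.58 over 54 pairs. Replicate 3 of the SUM1315 control stood apart from both other control libraries (13.86 and 18.38, against 3.449 between those), replicate 3 of 2 µM CDDP stood apart less evenly (9.345 and 20.58, against 6.896), and replicate 3 of olaparib likewise (8.273 and 8.264, against 2.864). Changes against control, against olaparib and with 2 µM CDDP that rest on them are given with and without them for the cases that moved most, and among the pairwise calls of the tested genes 1 was lost, CA9 with 2 µM CDDP.

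Cells sense oxygen through prolyl hydroxylases of the EGLN family, which mark the HIF-1α and HIF-2α proteins for destruction by the VHL complex while oxygen is present. When the hydroxylases are idle, HIF-α pairs with ARNT, binds short DNA elements and raises genes for glycolysis, pH control, mitophagy and secreted factors that act on blood vessels. HIF-α is controlled mainly as a protein, so its mRNA does not report its activity, and many of these target genes also answer to other signals.

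HIF binds a core element written ACGTG or GCGTG. Windows of 250 bases before a transcript start, from the RefSeq table (GRCh38.p14), were used for 7 of the 10 genes. STC1, NDRG1 and VEGFA were not searched, so nothing is said here about the cores near their starts. Where a gene has several starts, the one nearest to its canonical transcript was used. For EDN1 and PDK1 this start lies inside the annotated gene, downstream of the outermost start. Both cores were searched on both strands. Matches are in capitals, reading CACGT or CACGC where the match is on the opposite strand, for the genes with the widest spread between conditions (EDN1 and CA9), for ANGPTL4 and for BNIP3, which has the most matches.
EDN1 (chr6:12290111-12290360, plus strand): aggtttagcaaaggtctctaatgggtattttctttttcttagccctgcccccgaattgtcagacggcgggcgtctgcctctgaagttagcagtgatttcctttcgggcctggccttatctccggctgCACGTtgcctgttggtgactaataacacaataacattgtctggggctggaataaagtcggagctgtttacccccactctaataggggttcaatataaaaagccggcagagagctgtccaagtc
CA9 (chr9:35673678-35673927, plus strand): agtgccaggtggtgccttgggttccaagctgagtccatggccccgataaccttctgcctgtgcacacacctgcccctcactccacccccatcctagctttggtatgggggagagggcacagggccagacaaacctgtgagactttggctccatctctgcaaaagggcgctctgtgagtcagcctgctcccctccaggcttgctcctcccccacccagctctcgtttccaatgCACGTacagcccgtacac
ANGPTL4 (chr19:8363905-8364154, plus strand): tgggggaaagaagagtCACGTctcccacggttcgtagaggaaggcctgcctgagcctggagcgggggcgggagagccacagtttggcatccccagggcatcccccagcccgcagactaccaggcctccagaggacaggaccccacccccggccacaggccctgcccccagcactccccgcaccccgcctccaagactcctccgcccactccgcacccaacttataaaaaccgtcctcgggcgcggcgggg
BNIP3 (chr10:131981924-131982173, minus strand): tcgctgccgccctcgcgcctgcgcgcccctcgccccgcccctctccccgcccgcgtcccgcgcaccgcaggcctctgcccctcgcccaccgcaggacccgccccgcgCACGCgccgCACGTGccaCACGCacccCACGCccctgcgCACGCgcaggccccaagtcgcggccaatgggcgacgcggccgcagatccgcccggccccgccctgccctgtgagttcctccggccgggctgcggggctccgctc
The EDN1 match lay 123 to 119 bases before the start, the CA9 match 18 to 14 bases and the ANGPTL4 match 234 to 230 bases. BNIP3 held 6 matches between 143 and 100 bases before its start, and an ACGTG on each strand overlaps there in the run CACGTG. ADM had 1 GCGTG at 101 to 97 bases, PDK1 had ACGTG at 17 to 13 and 8 to 4 bases, and EGLN3 had neither core in this window. Of 35116 windows of the same length in the table, 43.2% held either core, 18.5% ACGTG and 32.2% GCGTG. A match of 5 letters is a description of the sequence, not a binding site. No reading of these elements was taken in the study, and their part in the changes of these genes was not tested.

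Gene positions are those of RefSeq on GRCh38.p14. Levels are adjusted read counts, that is reads per gene that the authors scaled to 1 library size. They are not corrected for gene length, so they are compared between conditions and not between genes. Fold changes are given on the scale log2(adjusted read count + 1), ± the standard error (SE) of the limma fit, and understate changes at low counts. A gene was called a DEG where its levels differed 2-fold or more and its adjusted p did not exceed 0.05. The adjustment was made within each condition, so a low value carries part of its condition's mean and need not be a whole read, and OlaR libraries rest on fewer reads. Less RNA per cell and fewer cells of a type cannot be told apart in such bulk RNA.

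EGLN3 is an oxygen-sensing hydroxylase that is itself a HIF target (chromosome 14, 33924227 to 33951074, minus strand). In SUM1315 cells it was read at 68.3, 57 and 75.4 in control libraries, at 132, 117 and 165 with olaparib, and at 62.6, 29.6 and 66.9 with 4 µM CDDP. With olaparib and 4 µM CDDP it was 108, 145 and 109, and in OlaR cells 200, 177 and 193. All olaparib libraries lay above all control libraries, by a log2 fold change of 1.03 ± 0.24, which was 1.12 without control replicate 3 and 0.89 without olaparib replicate 3. Olaparib added to 4 µM CDDP gave 1.24 ± 0.24 over CDDP alone, again with no overlap.

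With olaparib and in OlaR cells, EGLN3 changed in the opposite direction in MDA-MB-468 cells. The higher CDDP dose alone gave a log2 fold change of -0.41 in SUM1315 cells, where libraries overlapped control, and -0.29 in MDA-MB-468 cells. In MDA-MB-468 cells control libraries were the highest, at 426, 404 and 422, and olaparib libraries were at 332, 315 and 324. With olaparib and 2.5 µM CDDP the level was 229, 283 and 208, and in OlaR cells 156, 162 and 185, the lowest condition. OlaR libraries lay below olaparib-treated parental libraries by 0.95 on the log2 scale (-0.95 ± 0.11), and those of OlaR cells with 2.5 µM CDDP, at 200, 225 and 224, overlapped with their parental counterparts (-0.14 ± 0.11). EGLN3 overlaps its antisense gene EGLN3-AS1 on the opposite strand in the annotation. On the same strand it overlaps SPTSSA and a gene with no symbol. The strand setting of the counting is not given in the sources used here, so reads of opposite-strand partners cannot be told apart. For the same-strand genes the strand setting would not tell them apart.

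STC1, a secreted glycoprotein hormone of calcium and phosphate balance (chromosome 8, 23841929 to 23854806, minus strand), was well read in both lines. In SUM1315 cells it was at 3930, 4147 and 3614 in control libraries, 3502, 3698 and 3269 with olaparib, and 4378, 4314 and 4272 with olaparib and 4 µM CDDP. OlaR cells held 2304, 2170 and 2320, and with 4 µM CDDP 2286, 2193 and 2346. CDDP alone gave 4545, 5367 and 4191 at 2 µM, the highest condition, and 4816, 4274 and 4438 at 4 µM. The 9 OlaR libraries were all below the 18 parental ones. The log2 fold change of OlaR cells was -0.62 ± 0.08 against olaparib-treated parental cells, -0.73 ± 0.08 with the lower and -0.93 ± 0.08 with the higher CDDP dose. Adding CDDP to OlaR cells moved STC1 by -0.02 ± 0.08 and 0.01 ± 0.08.

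STC1 had the opposite order in MDA-MB-468 cells. It was at 958, 1083 and 999 in control libraries, 1067, 1120 and 1083 with olaparib and 800, 791 and 837 with 2.5 µM CDDP. Together, olaparib and 2.5 µM CDDP left 483, 452 and 516, the lowest level of the 9 conditions, which is 1.17 lower than olaparib alone on the log2 scale (-1.17 ± 0.07) and 0.74 lower than CDDP alone (-0.74 ± 0.07). With olaparib and 1 µM CDDP it was 715, 827 and 787, between those. OlaR cells held 1365, 1443 and 1375, and with 2.5 µM CDDP 1621, 1512 and 1406, so the combination's low level was not seen there. OlaR cells with 2.5 µM CDDP were 1.64 ± 0.07 higher than the parental combination, and the difference in the CDDP change between OlaR and olaparib-treated parental cells was 1.29 ± 0.09.

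ANGPTL4, a secreted inhibitor of lipoprotein lipase that is also made by hypoxic tissue (chromosome 19, 8364155 to 8374370, plus strand), moved most in MDA-MB-468 cells. Its level there was 322, 351 and 301 in control libraries and 281, 302 and 384 with olaparib, which overlap (-0.02 ± 0.14). With 2.5 µM CDDP it was 217, 198 and 209, and with olaparib and 2.5 µM CDDP 109, 87.1 and 85.7. The combination was below both single drugs, by -1.77 ± 0.14 against olaparib and -1.15 ± 0.14 against CDDP. OlaR libraries were at 74, 85.1 and 56.7, a log2 fold change of -2.16 ± 0.14 against olaparib-treated parental cells. With 2.5 µM CDDP, OlaR cells held 110, 106 and 99.4, which overlapped with the parental combination (0.17 ± 0.14). CDDP at this dose thus went with a lower ANGPTL4 level in olaparib-treated parental cells and a higher one in OlaR cells (0.56 ± 0.14), a difference of 2.33 ± 0.2.

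In SUM1315 cells ANGPTL4 was nearer to its replicate spread. Control libraries were at 140, 125 and 167, olaparib libraries at 139, 98.5 and 88.9, and those with 2 µM CDDP at 64.1, 85.6 and 74.3. The last lay below control by -0.94 ± 0.22, or -0.83 without control replicate 3. OlaR libraries, at 145, 169 and 178, lay above olaparib-treated parental ones by 0.61 ± 0.22 (0.48 without olaparib replicate 3), and at the matched CDDP doses by 1.13 ± 0.22 and 0.93 ± 0.22. Without added CDDP, the direction of OlaR against olaparib-treated parental cells therefore differed between the lines for STC1, ANGPTL4 and EGLN3.

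EDN1, which encodes the vasoconstrictor peptide endothelin-1 (chromosome 6, 12230516 to 12297194, plus strand), spanned the widest range of the 10 genes. In SUM1315 cells its condition means ran from 4.84 to 1020, a ratio of 211. Control libraries were at 257, 196 and 203, and olaparib libraries at 5.43, 24.8 and 4.99. With olaparib and 2 µM CDDP the level was 2.39, 11.4 and 0.738, and with olaparib and 4 µM CDDP 12.9, 15.1 and 6.08. Both CDDP doses alone left it at 75.9 to 122. OlaR libraries held 784, 751 and 845, and with 4 µM CDDP 1034, 1032 and 1003, so every library with acute olaparib lay below every control library and every OlaR library above.

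On the log2 scale EDN1 was -4.45 ± 0.43 with olaparib against control, -3.12 ± 0.43 with olaparib added to 4 µM CDDP and -1.47 ± 0.43 and -1.1 ± 0.43 with the lower and higher CDDP dose alone. OlaR cells exceeded olaparib-treated parental cells by 6.31 ± 0.43, and by 7.89 ± 0.43 and 6.46 ± 0.43 at the matched CDDP doses. Low counts set the size of these folds. Without olaparib replicate 2 the olaparib change was -5.13 and the OlaR difference 7, without olaparib replicate 3 they were -4.08 and 5.94, and with a pseudocount of 5 the 7.89 became 6.81. The change of -1.26 with 2 µM CDDP added to olaparib ranged from -2.04 to -0.57 when 1 library was left out, and the libraries overlapped.

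In MDA-MB-468 cells EDN1 was lower with olaparib and higher with CDDP. It was at 174, 267 and 221 in control libraries, 104, 100 and 101 with olaparib and 488, 485 and 465 with 2.5 µM CDDP. Olaparib and 2.5 µM CDDP together gave 333, 323 and 335. Against control, olaparib was -1.09 ± 0.13 and 2.5 µM CDDP 1.14 ± 0.13, and against olaparib alone the higher CDDP dose gave 1.69 ± 0.13. OlaR cells held 82.3, 76.2 and 76.5, and with 2.5 µM CDDP 99.4, 125 and 109, below the parental combination by -1.57 ± 0.13. Olaparib thus went with less EDN1 in both parental lines, while the higher CDDP dose alone and OlaR went with opposite directions in them.

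**Figure D1:**
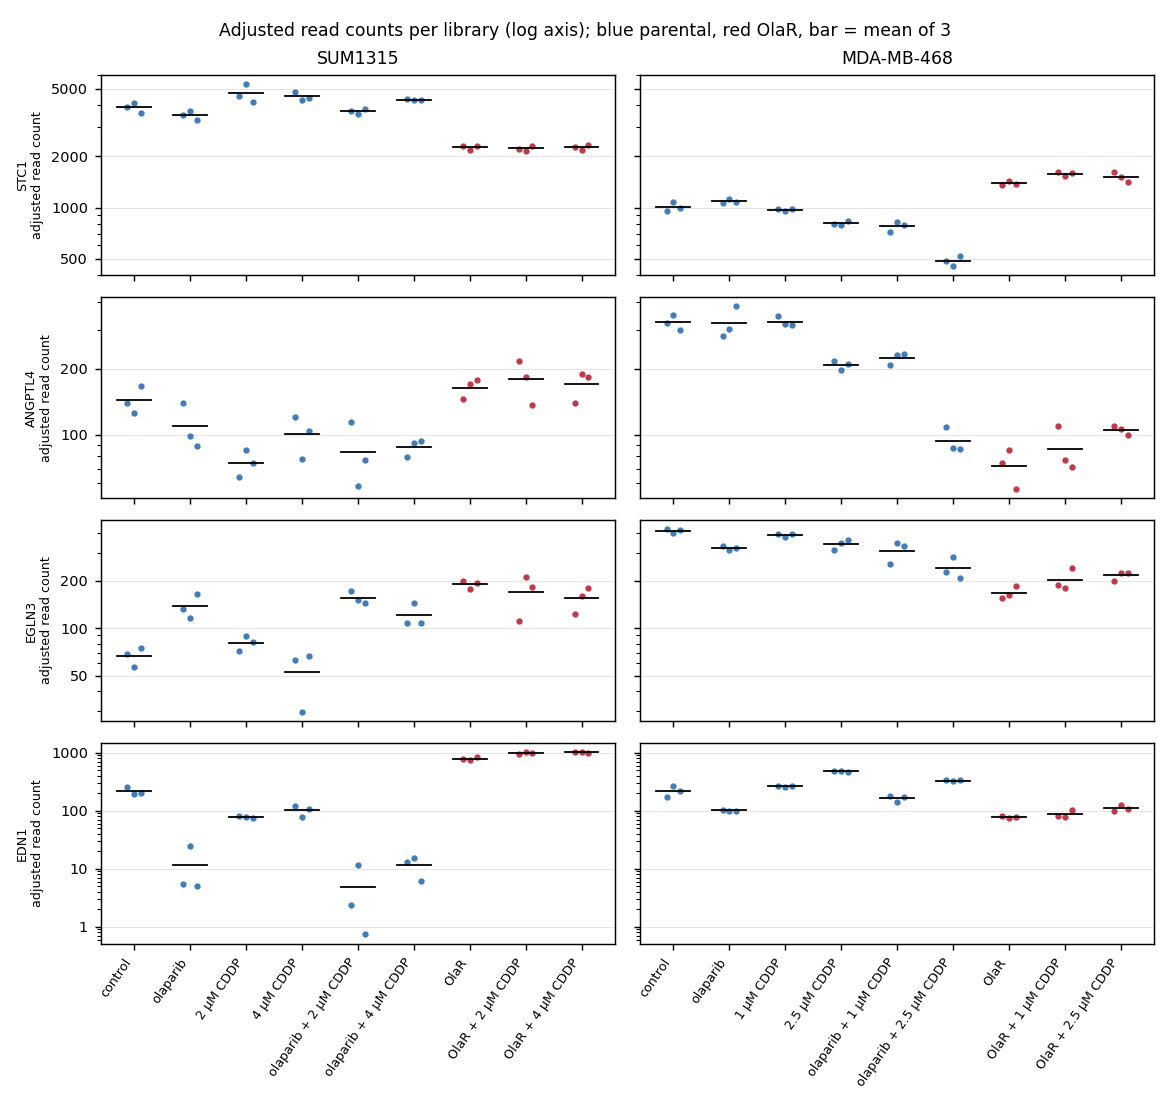
Adjusted read counts (log axis) of STC1, ANGPTL4, EGLN3 and EDN1 in each library of the 9 conditions of each line, with blue points for parental and red for OlaR libraries and a bar at the mean of 3. EDN1 in SUM1315 falls to 0.738 to 24.8 in the olaparib conditions and lies at 751 to 1034 in OlaR cells.

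VEGFA, the main growth factor for blood vessels (chromosome 6, 43770211 to 43786487, plus strand), had its highest mean in the untreated cells of both lines. In SUM1315 cells it was at 2338, 2648 and 1976 in control libraries, 1333, 1445 and 1389 with olaparib and 1447, 1466 and 1524 with 4 µM CDDP. OlaR cells with 4 µM CDDP had the lowest level, at 920, 785 and 858. The log2 fold change was -0.73 ± 0.09 with olaparib (limma, adjusted p = 9.84e-08) and -0.64 ± 0.09 with 4 µM CDDP (adjusted p = 7.17e-07), or -0.84 and -0.75 without control replicate 3. OlaR cells with 4 µM CDDP were -0.76 ± 0.09 below the parental combination (adjusted p = 2.63e-08). None of these reached a 2-fold change. In MDA-MB-468 cells the OlaR libraries stood clearly below, at 183, 164 and 134 against 283, 257 and 281 with olaparib, and with 2.5 µM CDDP at 170, 187 and 148 against 370, 377 and 363. The latter contrast, -1.14 ± 0.1 (limma, adjusted p = 6.94e-14), made VEGFA a DEG. An annotated gene with no symbol overlaps VEGFA on the opposite strand.

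ADM, the vasodilator peptide adrenomedullin (chromosome 11, 10305073 to 10307397, plus strand), rose with CDDP in SUM1315 cells. It was at 76.4, 69.4 and 80.6 in control libraries, 112, 133 and 101 with 2 µM CDDP and 201, 178 and 219 with 4 µM CDDP. The higher dose gave a log2 fold change of 1.39 ± 0.19 (limma, adjusted p = 2.63e-07), while the lower dose passed the p limit without a 2-fold change (0.6 ± 0.19, adjusted p = 0.0127). Olaparib alone gave 62.5, 69.9 and 72.9, which overlaps with control. OlaR cells held 156, 139 and 131, a DEG against olaparib-treated parental cells at 1.04 ± 0.19 (adjusted p = 2.45e-05). This call rests on the 2-fold limit: without OlaR replicate 1 or olaparib replicate 1 the change was 0.97 or 0.98, and with a pseudocount of 5 it fell just short. At 2 µM CDDP the OlaR difference was likewise 1.04 ± 0.19 (adjusted p = 2.83e-05), and 0.92 to 0.94 without OlaR replicate 3 or parental replicate 1 or 3 of that dose.

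In MDA-MB-468 cells ADM was lowest in OlaR cells, at 50.5, 33.5 and 30.9 against 128, 152 and 136 with olaparib in parental cells. That is -1.86 ± 0.17 on the log2 scale (limma, adjusted p = 6.95e-14). CDDP raised it in OlaR cells, to 63.6, 58.5 and 78.1 at 1 µM and 99.8, 94.4 and 114 at 2.5 µM, the latter by 1.43 ± 0.17 (adjusted p = 2.75e-09). In parental cells 2.5 µM CDDP gave 285, 213 and 219 against 158, 151 and 122 in control libraries, or 0.73 ± 0.17 (adjusted p = 0.000648), short of 2-fold. The higher CDDP dose thus went with more ADM in every setting of both lines where it was added, though in olaparib-treated MDA-MB-468 cells the change of 0.43 ± 0.17 missed the p limit (adjusted p = 0.0512).

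CA9, a cell-surface carbonic anhydrase that exports acid from hypoxic tumour cells (chromosome 9, 35673928 to 35681159, plus strand), rose with olaparib in SUM1315 cells. Control libraries were at 9.09, 10.3 and 1.1, the last from 1 read, and olaparib libraries at 66.1, 98.9 and 66. With 4 µM CDDP it was 27.7, 26.5 and 27.4, and with olaparib and 4 µM CDDP 173, 187 and 206. All treated parental libraries lay above all control libraries. Olaparib gave 3.62 ± 0.43 (limma, adjusted p = 4.18e-08) and 4 µM CDDP 2.18 ± 0.43 (adjusted p = 0.000101), and olaparib added to 4 µM CDDP gave 2.75 ± 0.43 over CDDP alone (adjusted p = 3.7e-05). Without control replicate 3 the first and second changes were 2.84 (adjusted p = 2.17e-07) and 1.4 (adjusted p = 0.00258).

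The third CA9 call against control, with 2 µM CDDP, was less firm. Its libraries were at 14.6, 11.1 and 44.6, and the log2 fold change of 1.72 ± 0.43 (limma, adjusted p = 0.00207) became 0.94 without control replicate 3 (adjusted p = 0.0561) and 1.15 without 2 µM CDDP replicate 3 (adjusted p = 0.0376). OlaR SUM1315 cells held 93.2, 52.1 and 67.7, which overlap with olaparib-treated parental cells. With 4 µM CDDP they held 31.5, 42.7 and 35.8, below the parental combination by -2.34 ± 0.43 (adjusted p = 3.73e-05). In MDA-MB-468 cells olaparib and control libraries of CA9 overlapped, at 231, 169 and 130 against 173, 160 and 189 in control libraries. OlaR libraries, at 59.6, 69.1 and 42.1, were below the olaparib-treated parental ones by -1.6 ± 0.19 (adjusted p = 3.8e-10), and with 2.5 µM CDDP, at 73.6, 62 and 53.9 against 139, 134 and 115, by -1.03 ± 0.19 (adjusted p = 7.95e-06). This last call is at the 2-fold limit: edgeR (-0.99) and DESeq2 (-0.98) did not make it, and it was -0.92 without OlaR replicate 3 and -0.97 without parental replicate 1 of that dose. CA9 overlaps ARHGEF39 on the opposite strand.

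NDRG1, a stress-responsive suppressor of metastasis (chromosome 8, 133237175 to 133297252, minus strand), had tight replicates, and olaparib added to the higher CDDP dose moved it in opposite directions in the lines. In SUM1315 cells it was at 839, 842 and 709 in control libraries, 1317, 1274 and 1257 with olaparib and 391, 432 and 343 with 4 µM CDDP. Olaparib and 4 µM CDDP together gave 924, 984 and 929, between the single drugs. CDDP at 4 µM lowered it by -1.03 ± 0.1 (limma, adjusted p = 2.06e-10), olaparib gave 0.69 ± 0.1 (adjusted p = 9.17e-07), short of 2-fold, and olaparib added to CDDP raised it by 1.29 ± 0.1 (adjusted p = 7.1e-11). The first of these is called or not with 1 library. It was -0.95 without 4 µM CDDP replicate 3, -0.99 without control replicate 1 or 2, and -1.12 without control replicate 3, which also took the olaparib change to 0.61. An annotated gene with no symbol overlaps NDRG1 on the same strand, so the strand setting would not tell their reads apart.

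In MDA-MB-468 cells neither drug alone moved NDRG1 by 2-fold, and both together did. Control libraries were at 1519, 1501 and 1502, olaparib libraries at 1371, 1310 and 1417 and 2.5 µM CDDP libraries at 1288, 1329 and 1287. With both drugs it was 588, 587 and 569, a log2 fold change of -1.23 ± 0.06 against olaparib (limma, adjusted p = 1.13e-23) and -1.16 ± 0.06 against CDDP (adjusted p = 3.12e-22). OlaR cells held 1972, 2033 and 2015, the highest level, and with 2.5 µM CDDP 1329, 1294 and 1302. CDDP in OlaR cells gave -0.62 ± 0.06 (adjusted p = 2.78e-12), short of 2-fold, and OlaR cells with CDDP stayed 1.17 ± 0.06 above the parental combination (adjusted p = 4.67e-24). In this line olaparib and 2.5 µM CDDP together also gave the lowest parental mean of STC1, ANGPTL4, EGLN3, CA9 and PDK1.

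BNIP3, which marks mitochondria for mitophagy (chromosome 10, 131967684 to 131981923, minus strand), was lowest in untreated SUM1315 cells. It was at 250, 239 and 170 in control libraries and 363, 462 and 441 with olaparib, a log2 fold change of 0.95 ± 0.13 (limma, adjusted p = 2.83e-07), and 0.78 without control replicate 3. Both CDDP doses gave 297 to 344, or 0.57 ± 0.13 and 0.59 ± 0.13 (adjusted p = 0.000603 and 0.000276). Without control replicate 3 these were 0.39 and 0.41 (adjusted p = 0.0137 and 0.00649). OlaR libraries were at 457, 472 and 480, overlapping with olaparib. In MDA-MB-468 cells it was at 212, 192 and 248 in control libraries and 276, 344 and 319 with olaparib (0.53 ± 0.12, adjusted p = 0.000753), and OlaR cells held 215, 204 and 188. No change of BNIP3 reached 2-fold in either line with all libraries in the fit. Annotated genes with no symbol overlap BNIP3 on the opposite strand.

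PDK1, a kinase that inhibits pyruvate dehydrogenase (chromosome 2, 172555373 to 172724312, plus strand), had the narrowest range of the 10 in SUM1315 cells, 1.5-fold between its condition means. Its SUM1315 condition means lay between 103 and 154, and no contrast passed the p limit there. In MDA-MB-468 cells 2.5 µM CDDP alone gave 151, 162 and 178, and olaparib added to it gave 101, 97.3 and 111, a log2 fold change of -0.66 ± 0.16 (limma, adjusted p = 0.00288). OlaR libraries, at 87.6, 104 and 94.6, were below 121, 154 and 153 with olaparib in parental cells by -0.57 ± 0.16 (adjusted p = 0.00216). PDK1-AS1 and a Y_RNA gene overlap PDK1 on the opposite strand.

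**Figure D2:**
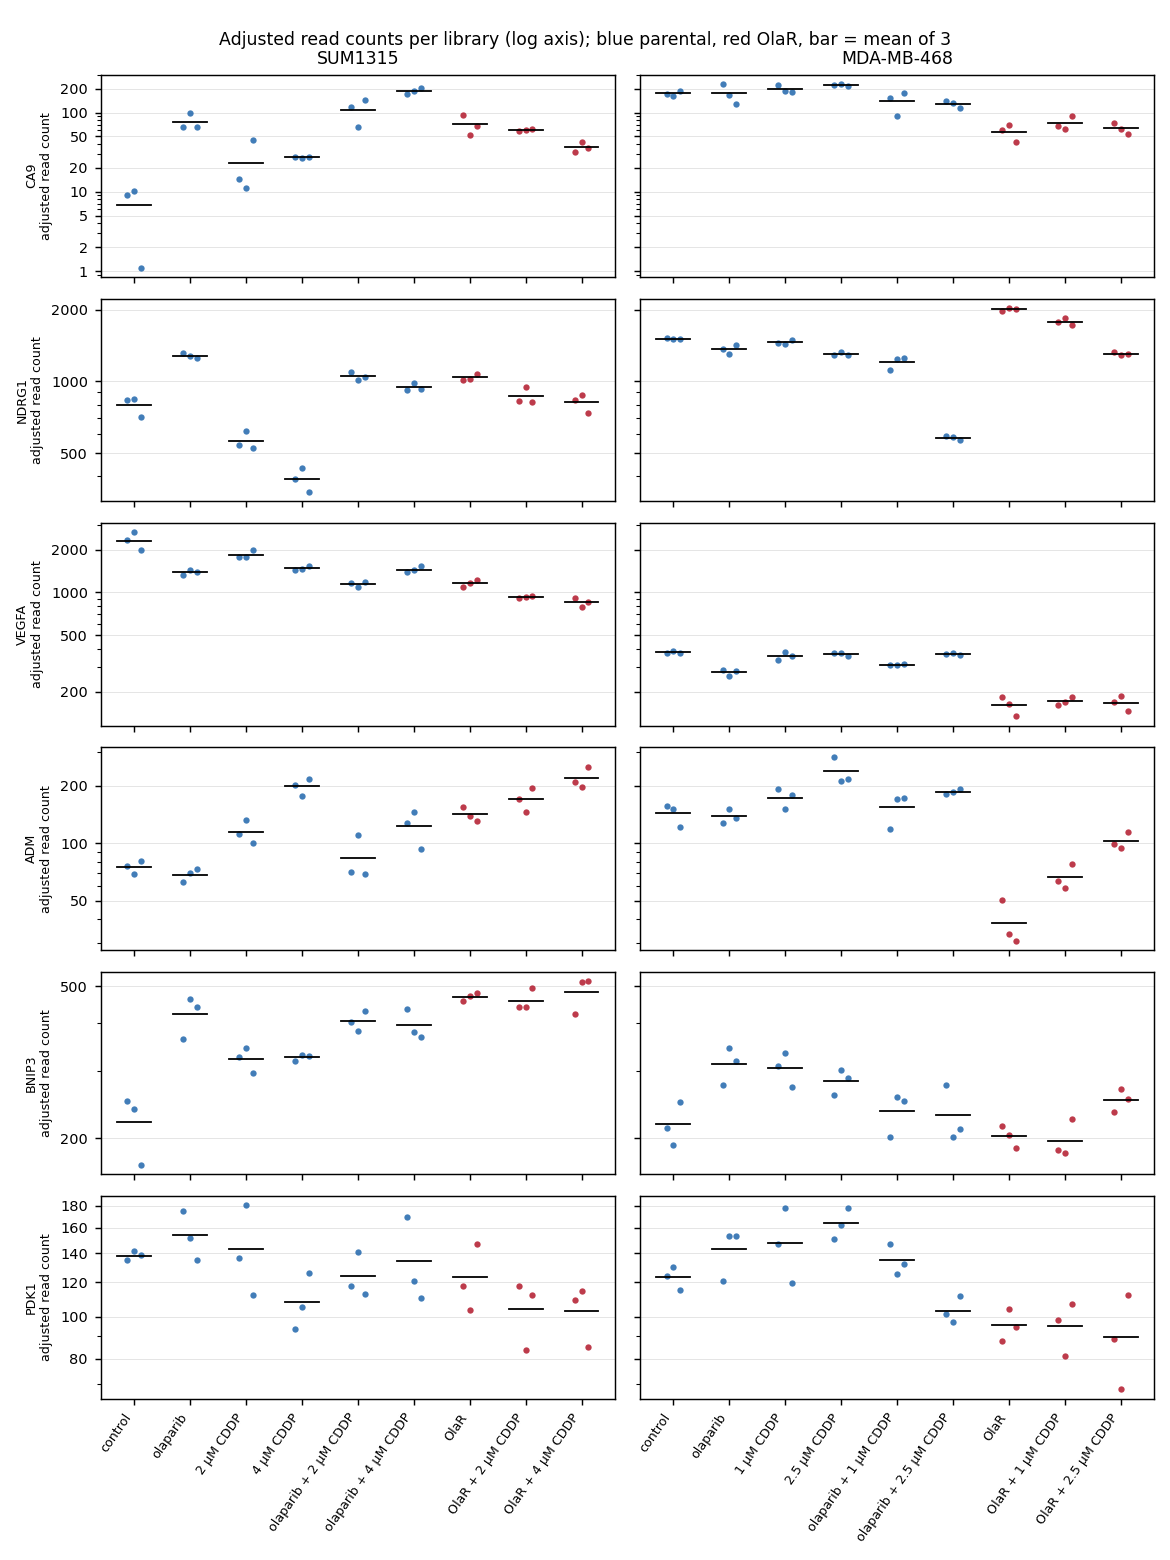
Adjusted read counts (log axis) of CA9, NDRG1, VEGFA, ADM, BNIP3 and PDK1 in each library of the 9 conditions of each line, with blue points for parental and red for OlaR libraries and a bar at the mean of 3. CA9 in SUM1315 runs from 1.1 in a control library to 206 with olaparib and 4 µM CDDP, and NDRG1 in MDA-MB-468 is at 569 to 588 with olaparib and 2.5 µM CDDP and at 1120 or more in the other conditions.

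Counted over the 6 tested genes and 11 pairwise contrasts of each line, 10 of 66 values (15.2%) were called in SUM1315 cells, 8 of them higher and 2 lower, against 8.2% of all genes and contrasts. In MDA-MB-468 cells 9 of 66 (13.6%) were called, 2 higher and 7 lower, against 4.9%. The calls came from 3 genes in SUM1315 cells (CA9, NDRG1 and ADM) and 4 in MDA-MB-468 cells (the same and VEGFA). Several contrasts share libraries, such as the 3 against control, and their values are not independent of each other. The 6 genes were also chosen with earlier results of these libraries in view, so these shares are a description and do not test the set.

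In SUM1315 cells 1 gene was called with olaparib (CA9), where 9.35% of all 13133 genes tested were called. CA9 was also the 1 call with the lower CDDP dose, against 8.79%, and 3 with the higher (CA9, NDRG1 and ADM), against 15.4%. The median log2 fold change of the 6 genes was 0.42, 0.29 and 0.11 in these contrasts, beside medians of 0, 0.01 and 0 over all genes. Olaparib added to the higher CDDP dose had 2 calls (CA9 and NDRG1), against 2.56%. Against the matched olaparib-treated parental cells, 1 gene was called in OlaR cells (ADM), 1 with the lower CDDP dose (ADM) and 1 with the higher (CA9), against 16.6%, 15.5% and 15.9%.

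No tested gene was called by limma in SUM1315 cells when the lower CDDP dose was added to olaparib (0.495% of all genes called), although 2 had an unadjusted p under 0.05, and edgeR and DESeq2 called 0. The share of all genes under this unadjusted limit is not given here, so such counts have no background beside them. With the higher dose added to olaparib (1.32%) limma called 0 with 3 under the unadjusted limit, while edgeR and DESeq2 each called CA9, whose libraries did not overlap (1.31 ± 0.43, limma adjusted p = 0.0526). In OlaR cells limma, edgeR and DESeq2 called 0 with the lower CDDP dose (0.533%) and 0 with the higher (3.82%), with 2 and 4 genes under the unadjusted limit. Of the latter, VEGFA (-0.44 ± 0.09, adjusted p = 0.000837), NDRG1 (-0.35 ± 0.1, adjusted p = 0.0119) and ADM (0.62 ± 0.19, adjusted p = 0.0191) passed the adjusted limit below 2-fold.

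In MDA-MB-468 cells none of the 6 was called against control by limma, edgeR or DESeq2. All 13012 genes had 1.74% called with olaparib, 1.83% with the lower and 2.59% with the higher CDDP dose, and 3, 1 and 4 of the 6 genes had an unadjusted p under 0.05. These percentages are of genes called, and the share of all genes under the unadjusted limit is not given here. The lower CDDP dose added to olaparib (0.177%) and to OlaR cells (0.392%) also gave 0 calls by limma, edgeR and DESeq2, with 2 genes each under the unadjusted limit. NDRG1 was the 1 call with the higher dose added to olaparib (1.91%) and with olaparib added to the higher dose (0.438%). ADM was the 1 call with the higher dose in OlaR cells (2.39%).

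OlaR against matched parental MDA-MB-468 cells gave the other calls. Against olaparib alone 2 genes were lower (CA9 and ADM), against 14.3% of all genes called. At the lower CDDP dose 1 was lower (ADM), against 13.6%. At the higher dose CA9 and VEGFA were lower and NDRG1 higher, against 14.6%. The median log2 fold change of the 6 genes was -0.7, -0.68 and -0.55, beside -0.03, -0.04 and -0.05 over all genes.

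**Figure D3:**
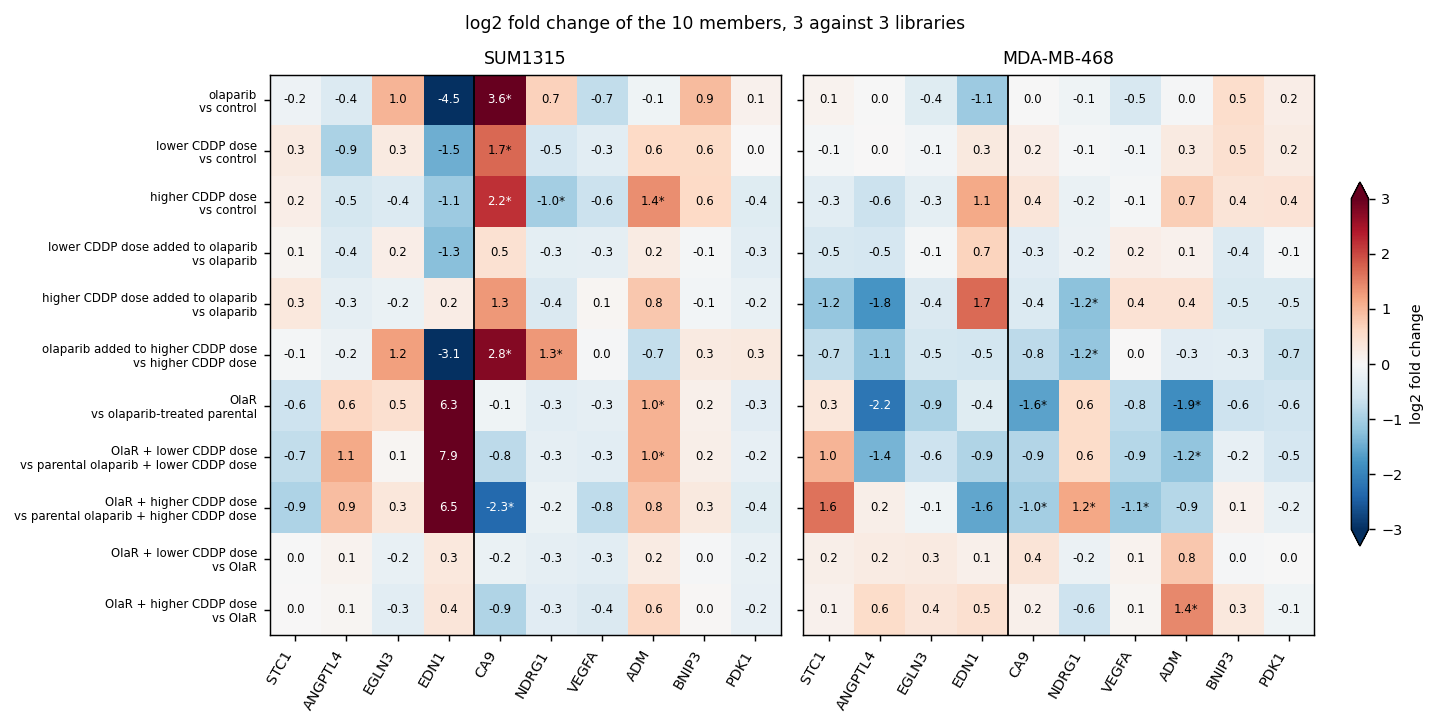
Log2 fold changes, on the scale log2(adjusted read count + 1), of the 10 genes (columns) in the 11 pairwise contrasts (rows) of each line. Red is higher and blue is lower in the first-named condition. EDN1 in SUM1315 goes from -4.45 with olaparib to 7.89 in OlaR cells with the lower CDDP dose, while PDK1 stays within -0.36 and 0.29 in that line.

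The differences between changes were also tested, at an adjusted p at or under 0.05 with no fold limit. For the change with the higher CDDP dose, OlaR against olaparib-treated parental, 2 of the 6 genes differed in SUM1315 cells (6.4% of all genes) and 3 in MDA-MB-468 cells (15%). For the olaparib change with against without the higher CDDP dose, 3 differed for SUM1315 (21.5%) and 5 for MDA-MB-468 (20.2%). Between the lines, 2 of 6 genes differed in the olaparib change (19.9% of 14460 genes), 5 in the higher-dose CDDP change (27.5%) and 4 when olaparib was added to the higher dose (9.05%). For OlaR against olaparib-treated parental cells 5 differed (41.7%), and for the higher CDDP dose in OlaR cells 2 (5.44%). The widest gaps between lines were those of CA9 with olaparib, at 3.62 for SUM1315 and -0.01 for MDA-MB-468 (limma, adjusted p = 1.02e-06), CA9 with olaparib added to the higher CDDP dose (2.75 and -0.79, adjusted p = 7.33e-06) and ADM in OlaR cells (1.04 and -1.86, adjusted p = 5.35e-13). Doses differed between the lines and libraries were sequenced in batches of 27 whose members are not stated, so levels were not tested between lines.

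Among the genes that control HIF, mRNA of HIF1A, the α subunit of HIF-1, was lower in OlaR MDA-MB-468 cells. It was at 43.7, 27.7 and 38.7 against 68.7, 99.6 and 97.1 in olaparib-treated parental cells (-1.25 ± 0.21, limma, adjusted p = 1.65e-06), and lower again with 2.5 µM CDDP (-1.32 ± 0.21, adjusted p = 5.53e-07). EGLN1, the main hydroxylase, was at 128, 133 and 154 against 355, 350 and 255 (-1.19 ± 0.11, adjusted p = 2.39e-13), and at 1 µM CDDP the difference was -1.13 ± 0.11 (adjusted p = 1.41e-12). These 4 were the calls of the list in this line, 5.19% of the values of its 7 tested genes in 11 contrasts, a share near the 4.9% of all genes. EPAS1, the α subunit of HIF-2, was below 2-fold but went in opposite directions, with -0.46 ± 0.07 in OlaR MDA-MB-468 cells (adjusted p = 2.04e-07) and 0.64 ± 0.09 in OlaR SUM1315 cells (adjusted p = 9.72e-07).

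In SUM1315 cells the 3 calls of this list (3.9% of its values, under the 8.2% of all genes) were those of CITED2, a protein that competes with HIF for its coactivator. It was at 113, 165 and 61.4 in control libraries, 287, 339 and 323 with olaparib and 361, 393 and 419 with 4 µM CDDP. The log2 fold changes were 1.58 ± 0.19 with olaparib (limma, adjusted p = 3.53e-08), 1.62 ± 0.19 with 2 µM CDDP (adjusted p = 2.84e-08) and 1.89 ± 0.19 with 4 µM CDDP (adjusted p = 5.64e-10). Without control replicate 3, the lowest library, they were 1.2, 1.24 and 1.51 and all 3 calls held. ARNT, VHL and HIF1AN, the asparagine hydroxylase of HIF, were called in no pairwise contrast of either line. EGLN2, the third hydroxylase, had no more than 1.42 adjusted reads in any library and was not tested.

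Of 69 pathway genes outside the 10, taken from 5 lists that were drawn up with earlier results known, 59 were tested for SUM1315 and 55 for MDA-MB-468. In SUM1315 cells 51 of 649 values were called (7.86%), 20 higher and 31 lower, from 22 genes. In MDA-MB-468 cells 50 of 605 were called (8.26%), 28 higher and 22 lower, from 21 genes. The SUM1315 share is close to the 8.2% of all genes, and the MDA-MB-468 share is above 4.9%. With olaparib in SUM1315 cells 5 list genes were higher and 2 lower, where 9.35% of all genes were called, and the list median was 0.27 beside 0 over all genes. In OlaR MDA-MB-468 cells 8 were higher and 7 lower, where 14.3% of all genes were called, and the median was -0.06 beside -0.03.

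The 17 genes of glucose uptake and glycolysis had 8 calls for SUM1315 (4.28% of values) and 5 for MDA-MB-468 (2.84%). Both shares are under those of all genes, 8.2% and 4.9%. LDHA, which makes lactate, rose with olaparib in SUM1315 cells from a mean of 2040 ± 321 to 4850 ± 275 (SD, n = 3), a log2 fold change of 1.26 ± 0.1 (limma, adjusted p = 9.24e-12). ALDOC, an aldolase, rose from 45.4 ± 11.5 to 166 ± 34.4 (1.86 ± 0.19, adjusted p = 1.82e-09). PGAM1 rose with 4 µM CDDP from 4.26 to 15.2, on 13 and 49 reads (1.59 ± 0.49, adjusted p = 0.00811). In MDA-MB-468 cells PFKFB4 was lower in OlaR cells (-1.71 ± 0.35, adjusted p = 5.23e-05), while TPI1 and the lactate exporter SLC16A3 were higher in OlaR cells with 2.5 µM CDDP (1.18 ± 0.06 and 1.07 ± 0.21, adjusted p = 1.56e-22 and 1.87e-05).

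The 8 matrix and pH genes had 5 calls in SUM1315 cells, 1 higher and 4 lower (5.68%), and 1 in MDA-MB-468 cells (1.3%). Here too the shares are under the 8.2% and 4.9% of all genes. P4HA1, a collagen prolyl hydroxylase, was lower in OlaR cells of both lines against olaparib-treated parental cells, by -1.35 ± 0.11 in SUM1315 at 2 µM CDDP (limma, adjusted p = 2.27e-12) and -1.27 ± 0.11 in MDA-MB-468 (adjusted p = 7.85e-14). PLOD2, a lysyl hydroxylase, rose with olaparib in SUM1315 cells (1.11 ± 0.18, adjusted p = 1.25e-05), a change that fell short of 2-fold without control replicate 3 (0.97), and LOX, which crosslinks collagen, was lower in OlaR SUM1315 cells with 4 µM CDDP (-1.11 ± 0.29, adjusted p = 0.00239).

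The list of mitophagy, chromatin and other hypoxia targets (18 genes) had 14 calls in SUM1315 cells, 3 higher and 11 lower (8.48%), and 11 in MDA-MB-468 cells, 7 higher and 4 lower (6.67%). Of all genes and contrasts 8.2% and 4.9% were called, so the SUM1315 share is near that of all genes. DDIT4, an inhibitor of mTORC1, was at 726 ± 45.9 (SD, n = 3) in OlaR SUM1315 cells against 3680 ± 252 with olaparib in parental cells (-2.34 ± 0.12, limma, adjusted p = 7.67e-17). KDM4B, a histone demethylase, was lower when 4 µM CDDP was added to OlaR SUM1315 cells (-1.38 ± 0.14, adjusted p = 1.52e-08). In MDA-MB-468 OlaR cells with 2.5 µM CDDP, TFRC, the transferrin receptor, was higher than in the parental combination (1.53 ± 0.06, adjusted p = 1.16e-26), as was RORA (1.58 ± 0.43, adjusted p = 0.00181). PPFIA4, at 3 reads in OlaR cells with 1 µM CDDP and 33 in the parental combination, was lower (-2.03 ± 0.57, adjusted p = 0.00242).

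The 18 angiogenic and vasoactive ligands and receptors had the largest share of calls, 21 values for SUM1315 (15.9%) and 29 for MDA-MB-468 (26.4%), over 12 and 10 tested genes. Beside these stand 8.2% and 4.9% of all genes and contrasts. In SUM1315 cells PGF, a VEGF relative, rose with olaparib from 81.2 ± 5.32 to 260 ± 11.9 (SD, n = 3; log2 fold change 1.67 ± 0.17, limma, adjusted p = 3.39e-09), and STC2, the paralog of STC1, fell from 1620 ± 383 to 427 ± 44.5 (-1.9 ± 0.14, adjusted p = 9.24e-13). ANGPT1 was at 1.89 in OlaR SUM1315 cells with 4 µM CDDP against 42.8 in the parental combination (-4.11 ± 0.43, adjusted p = 2.13e-09), on 4 reads against 145. In MDA-MB-468 cells EDNRB, a receptor of endothelin-1, had 0 reads with olaparib in the 3 parental libraries and 222 in the OlaR libraries, at least 128-fold higher against a floor of 3 reads over the group (adjusted p = 1.38e-13). LPL, the lipase that ANGPTL4 inhibits, had 0 reads in the parental combination with 2.5 µM CDDP and 28 in OlaR cells, at least 19.6-fold higher (adjusted p = 3.2e-05). NRP1, a VEGF co-receptor, was lower in OlaR cells at 1 µM CDDP (-3.01 ± 0.26, adjusted p = 2.37e-14).

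**Figure D4:**
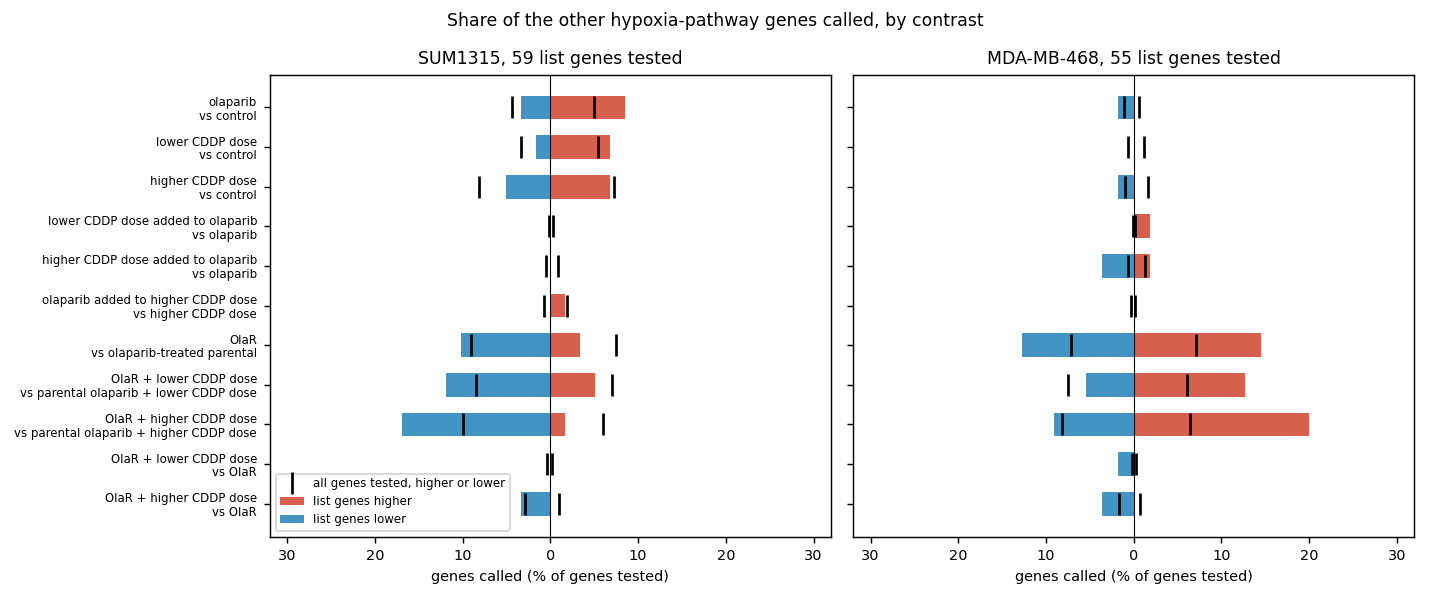
Share of the 59 (SUM1315) and 55 (MDA-MB-468) tested pathway genes that were called higher (red, right) or lower (blue, left) in each pairwise contrast, in percent, with black ticks at the shares of all genes tested in each direction. In MDA-MB-468 the ticks lie farthest out for OlaR against matched parental cells. In SUM1315 those of the higher CDDP dose against control (7.24% higher, 8.16% lower) lie about as far out as those for OlaR cells.

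The 10 genes did not form 1 pattern over the conditions. Of the 45 pairs, 21 had a positive Pearson correlation over the 9 condition means for SUM1315 and 30 for MDA-MB-468, values that describe points sharing line, sequencing and normalisation. ANGPTL4 and EGLN3 had the highest in MDA-MB-468 cells (0.955) and VEGFA and BNIP3 the lowest in SUM1315 cells (-0.908). STC1 and ANGPTL4 had -0.86 in SUM1315 cells. Over the 18 condition means, each centred on its line, the genes most like STC1 among 11754 others were PDCD2 (0.912), BPIFB1 (0.91) and HIVEP3 (0.907), and those most like ANGPTL4 were AXIN2 (0.875), THEM4 (0.875) and EEF1G (0.874).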

How the data were processed

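Poly(A) RNA of 54 libraries was sequenced by QuantSeq 3′ mRNA sequencing. The submitters' processing notes name CASAVA 1.8.2, FastQC, STAR, HTSeq and edgeR with build hg38. The authors deposited adjusted read counts, a signal in which edgeR scaled each library to a common size of 5585170 reads. Tables of the authors' own log2 fold changes, p-values and false discovery rates were not used. Samples were grouped by their titles.

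The deposited values are not whole, so limma 3.58.1 (R 4.3.3) was fitted to log2(value + 1) over all 27 libraries of a line, for genes with at least 10 in at least 3 libraries, with Benjamini-Hochberg adjustment over all genes tested. The scaling could be inverted to whole reads for 100% of 1483380 values, and edgeR 4.0.16 and DESeq2 1.42.0 were run on those as alternatives. The scripts were tested on simulated data. Other alternatives were the pseudocount, the filter, rescaling, the groups in the fit, the fold limit, a replicate block and leaving out each library.

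The 10 genes and the 5 pathway lists were chosen with earlier results of these data known. Named genes are the 10, all 8 oxygen-sensing genes, at most 3 of each other list and line with the largest called fold change, and the 3 most correlated with STC1 and with ANGPTL4. At least 1 gene that meets this rule is left out of the text. For MDA-MB-468 the sample labels give 2.5 µM as the higher dose of CDDP, while the series description has 2 µM, and the labels were followed.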

Additional observations from a re-analysis of the deposited data

Results flagged for a closer look

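Changes that differed between settings or lines are given as differences of log2 fold changes, with limma's adjusted p. In SUM1315 cells the change with the higher CDDP dose, OlaR minus olaparib-treated parental, differed for CA9 by -2.21 (adjusted p = 0.0237) and for VEGFA by -0.5 (adjusted p = 0.0151). The CA9 call was lost with no filter (adjusted p = 0.0659) and without OlaR replicate 1, OlaR with 4 µM CDDP replicate 1, olaparib replicate 1 or the combination's replicate 3 (adjusted p = 0.0524 to 0.0711). In MDA-MB-468 cells it differed for NDRG1 by 0.61 (adjusted p = 7.67e-08), ADM by 1 (adjusted p = 0.00174) and BNIP3 by 0.77 (adjusted p = 0.000887).

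The olaparib change with minus without the higher CDDP dose differed in SUM1315 cells for NDRG1 by 0.59 (adjusted p = 0.00179), VEGFA by 0.7 (adjusted p = 0.000137) and BNIP3 by -0.68 (adjusted p = 0.00523). In MDA-MB-468 cells it differed for CA9 by -0.77 (adjusted p = 0.0329), NDRG1 by -1.02 (adjusted p = 1.32e-14), VEGFA by 0.49 (adjusted p = 0.00989), BNIP3 by -0.84 (adjusted p = 0.000185) and PDK1 by -0.87 (adjusted p = 0.00356). The CA9 call was lost with no filter (adjusted p = 0.109) and without any 1 of 6 libraries, controls 1 and 2, 2.5 µM CDDP 1 and 2, the combination's replicate 3 (adjusted p = 0.0577 to 0.0879) and olaparib replicate 1 (-0.56, adjusted p = 0.16).

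Between the lines, as SUM1315 minus MDA-MB-468, the olaparib change differed for CA9 by 3.64 (adjusted p = 1.02e-06) and NDRG1 by 0.83 (adjusted p = 2.61e-08). The higher-dose CDDP change differed for CA9 by 1.82 (adjusted p = 0.00668), NDRG1 by -0.82 (adjusted p = 1.66e-08), VEGFA by -0.59 (adjusted p = 0.000316), ADM by 0.66 (adjusted p = 0.0463) and PDK1 by -0.77 (adjusted p = 0.0186). Of these, CA9 was 1.04 without SUM1315 control replicate 3 (adjusted p = 0.0747) and missed the limit with only its groups in the fit (adjusted p = 0.0524). ADM missed it with no filter (adjusted p = 0.0578), after rescaling (adjusted p = 0.0523) and without any 1 of 8 libraries of the 4 groups compared (adjusted p up to 0.111), and PDK1 without SUM1315 4 µM CDDP replicate 1 (adjusted p = 0.0597). With olaparib added to the higher CDDP dose the differences were 3.53 for CA9 (adjusted p = 7.33e-06), 2.45 for NDRG1 (adjusted p = 1.66e-23), 0.58 for BNIP3 (adjusted p = 0.0289) and 0.95 for PDK1 (adjusted p = 0.0117). Without SUM1315 combination replicate 1 the last 2 were lost (adjusted p = 0.0935 and 0.0647), and BNIP3 also without 5 other single libraries of the CDDP and combination groups (adjusted p up to 0.101).

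For OlaR against olaparib-treated parental cells the lines differed for CA9 by 1.47 (adjusted p = 0.0203), NDRG1 by -0.86 (adjusted p = 1.92e-09), VEGFA by 0.51 (adjusted p = 0.00079), ADM by 2.9 (adjusted p = 5.35e-13) and BNIP3 by 0.79 (adjusted p = 0.000351). The CA9 difference was 1.26 to 1.28 and missed the limit (adjusted p = 0.063 to 0.0655) without SUM1315 OlaR replicate 1, MDA-MB-468 OlaR replicate 3 or MDA-MB-468 olaparib replicate 1. For the higher CDDP dose in OlaR cells they differed for VEGFA by -0.51 (adjusted p = 0.01) and ADM by -0.81 (adjusted p = 0.0489). The ADM call was lost under edgeR with TMM (adjusted p = 0.137), DESeq2 (adjusted p = 0.0707), pseudocount 5 (adjusted p = 0.0588), no filter (adjusted p = 0.0675), only its groups in the fit (adjusted p = 0.0797) and most fits without 1 library. The VEGFA call was lost with only its groups in the fit (adjusted p = 0.083) and without MDA-MB-468 OlaR replicate 3 (-0.39, adjusted p = 0.0535).

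For STC1, ANGPTL4, EGLN3 and EDN1 the libraries moved in opposite directions without overlap, and the difference was not tested. Between the lines STC1 differed by 0.53 with the higher CDDP dose and -0.98 in OlaR cells, and ANGPTL4 by 2.77 in OlaR cells. EGLN3 differed by 1.39 with olaparib, 1.76 with olaparib added to the higher CDDP dose and 1.42 in OlaR cells, and EDN1 by -2.24 with the higher CDDP dose and 6.68 in OlaR cells. Within MDA-MB-468 cells the higher-dose CDDP change, OlaR minus olaparib-treated parental, differed by 2.33 for ANGPTL4 and 0.81 for EGLN3.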

How the results depend on the processing

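Among the called changes, and those described changes recomputed, none turned direction under the alternatives run; changes near 0 were not recomputed. Without the fold limit the calls among the 6 tested genes were 31 for SUM1315 and 33 for MDA-MB-468, in place of 10 and 9 (47% and 50%, beside 26.6% and 25.9% of all genes and contrasts), and among the pathway genes 226 and 222, in place of 51 and 50. Leaving out 1 library gave 9 to 11 and 8 to 10 calls of the tested genes, and 47 to 54 and 46 to 53 of the pathway genes. With the replicate block there were 10 and 9 calls of the tested genes, and 51 and 52 of the pathway genes. The labels do not say whether the replicate numbers pair the samples. Deviations of same-numbered libraries correlated from -0.0977 to 0.163 for SUM1315 and from -0.0468 to 0.0426 for MDA-MB-468. Under the block the line differences of ADM with the higher CDDP dose (adjusted p = 0.0521) and of ADM with that dose in OlaR cells (adjusted p = 0.0557) missed the limit. The CA9 call in MDA-MB-468 OlaR cells with 2.5 µM CDDP fell short of 2-fold under pseudocount 5, rescaling, edgeR and DESeq2 (-0.99 to -0.97), and that of CA9 with 2 µM CDDP in SUM1315 cells missed the p limit with only its groups in the fit (adjusted p = 0.0897). Low counts limit CA9 in SUM1315 control and EDN1 in SUM1315 olaparib libraries; with a pseudocount of 5 the CA9 changes were 2.88 with olaparib and 1.56 with 4 µM CDDP. Leaving out the SUM1315 libraries that stand apart was added for the named pathway genes after seeing the data. The causes were not tested.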
